A study of Rattus norvegicus with 12 samples.

Results

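The genes described here are 47 enzymes and regulators of glutathione use and antioxidant defence, followed across kidneys of lean and obese Zucker rats with and without rosiglitazone. They were taken as a list of gene symbols by a rule that reads no measured value, but the list was drawn up with earlier results of these data known, so its shares below describe it and support nothing further. Each gene was represented by the probe set with the highest mean signal among those that the array annotation assigns to that gene alone. Of the 47 genes, 46 had such a probe set, out of 14217 genes on the array, and 45 passed a filter on dim probe sets, out of 10524. The exceptions were Prdx1, whose probe set is shared with another gene and was not used, and Gstm3, a mu class transferase, whose signals of 23.8 to 76.2 lay below the filter at a signal of about 144. The 46 genes had 55 probe sets in all, and 8 genes had more than 1.

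The study used kidneys of 12 male rats of the Zucker strain, 6 of them lean and the other 6 obese, and holds 12 arrays. In each body type, 3 rats were fed plain ground chow for 12 weeks, and 3 were fed chow that supplied 3 mg of rosiglitazone per kg body weight. This gives 4 groups of 3 arrays: lean control, lean rosiglitazone, obese control and obese rosiglitazone. The obesity of this strain comes from a mutation of the leptin receptor, and the obese animals overeat and become insulin resistant, and the labels call the animals a model for diabetes. The sources used here do not state whether the lean rats were carriers, how old the animals were or which part of the kidney was taken. Rosiglitazone activates the nuclear receptor PPARgamma and is used to lower blood glucose.

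Glutathione is a tripeptide that cells make in a pair of steps, the first limited by glutamate-cysteine ligase, a dimer of the catalytic subunit Gclc and the modifier subunit Gclm. Glutathione S-transferases couple it to reactive compounds, glutathione peroxidases spend it on peroxides, and glutathione reductase regenerates it. Peroxiredoxins do the same work with electrons from thioredoxin, superoxide dismutases turn superoxide into hydrogen peroxide, and catalase splits that peroxide. Many of these genes are known targets of Nrf2, encoded by Nfe2l2, a transcription factor that Keap1 holds back and that binds antioxidant response elements. The kidney, above all the proximal tubule, is known for high glutathione synthesis and for breaking down filtered glutathione at its brush border with gamma-glutamyltransferase, encoded by Ggt1.

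Promoter sequences from RefSeq on the GRCr8 rat assembly were available for 37 of the 45 genes tested. They were searched on both strands over the 250 bases before each gene's start for the core of the antioxidant response element, TGACNNNGC, and for the AP-1 site TGACTCA, a motif that overlaps the first where it is followed by GC. The core was found in 10.1% of the 33469 promoter windows of the table and in 7 of the 37 windows searched, those of Gsta3, Gstm7, Gstp1, Gstz1, Txnrd1, Sod2 and Gclm. Of the 15 windowed genes that differed between body types over both diets, described below, 0 held the core, as against 7 of the 22 that did not pass the test. The AP-1 letters were found in 4.05% of all windows and in 2 of the 37, those of Gstp1 and Srxn1. The sequences below run 5′ to 3′ along each gene's own strand, with the matches in capitals. The first pair shows the matches of 2 genes that did not pass the test over both diets, and the other 4 show the 100 bases before the start of the genes with some of the greatest differences between body types, of which only Srxn1 held either motif in its window, 62 bases before the start.
Gstp1 (chr1:210769728-210769796, minus strand): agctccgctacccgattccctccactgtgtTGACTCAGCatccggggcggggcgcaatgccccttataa
Gclm (chr2:213031933-213032001, plus strand): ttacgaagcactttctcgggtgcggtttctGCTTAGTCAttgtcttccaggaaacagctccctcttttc
Srxn1 (chr3:161064712-161064811, plus strand): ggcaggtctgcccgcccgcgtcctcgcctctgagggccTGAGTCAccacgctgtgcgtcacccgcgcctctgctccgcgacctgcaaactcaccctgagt
Gstm2 (chr2:198316918-198317017, minus strand): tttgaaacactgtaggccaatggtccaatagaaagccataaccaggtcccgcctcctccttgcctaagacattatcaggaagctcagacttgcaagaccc
Cyba (chr19:67404215-67404314, minus strand): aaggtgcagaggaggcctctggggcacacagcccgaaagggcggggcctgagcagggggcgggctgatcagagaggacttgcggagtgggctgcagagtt
Gclc (chr8:87510376-87510475, plus strand): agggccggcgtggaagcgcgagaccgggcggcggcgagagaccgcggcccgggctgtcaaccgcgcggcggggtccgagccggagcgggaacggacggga
In Gstp1 the capitals are both an antioxidant response element core and an AP-1 site, and in Gclm and Srxn1 the match lies on the opposite strand. A match describes letters only, and a window without one says nothing of the factor.

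Values are signals on a linear scale, and differences were tested with limma on log2 of the signal plus 16, with p-values adjusted over all 18625 probe sets kept. A gene is said to have risen or fallen where its adjusted p was under 0.05. Log2 changes and folds are on that scale, which understates changes of dim genes, and signals of different probe sets do not rank transcript levels. The markers Umod, Slc12a1, Aqp2, Lrp2 and Slc34a1 of kidney tubules were bright in every array. The 12 arrays fell into 2 classes by the signal of the cre hybridization control, which is spiked in at a fixed amount. The control read 17127 to 18837 in 5 arrays, namely lean control 1 and 2, lean rosiglitazone 1 and 2 and obese control 1, and 12624 to 14590 in the other 7. Of the 6 lean arrays 4, and of the 6 obese arrays 1, were in the higher class. Differences between body types were therefore also fitted with the class as a covariate and within a class. Within the lower class lean control 3 and lean rosiglitazone 3 were the only lean arrays. Within the higher class obese control 1 was the only obese array. Values within a class thus rest on 1 array in some groups, and a call kept there is weak support. Beside each called change stand the alternatives that ended the call or moved the value by more than 1.5 times; calls lost without trend and robust settings or without the filter, and, on a single diet, with median-centred arrays or within a cre class, are given once, with the counts. The tissue is a mixture of cell types, so fewer cells of a type and less RNA per cell cannot be told apart.

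Between obese and lean kidneys, 18 of the 45 genes differed when both diets were combined: 6 rose and 12 fell. Srxn1, Gstm2 and Ucp2 rose most, and Gstt1, Cyba and Gclc fell most. The share called was 40% of these genes against 16.3% of all 10524 genes tested. The median signal was 3021 for these genes and 665 for all genes, and shares called by signal range are given below. Upward calls were 6 of 45 beside 8.6% of all genes, and downward calls 12 of 45 beside 7.73% of all genes. The median log2 change was -0.07 over these genes and 0.03 over all genes, and 30 of the 45 lay below 0. Under quantile normalization the split was 6 higher and 7 lower, and with each array centred on its median it was 3 higher and 6 lower. Of all genes, 15.9% and 11.4% were called in these settings. In 9 of the 45 genes (Gstm2, Gstt1, Gsto1, Gpx4, Txn1, Sod1, Cyba, Ucp2 and Srxn1) the obese and lean arrays did not overlap within either diet, in the same direction in both. That is 20% beside 11.4% of all genes, and all 9 were among the 18 called. Leaving out single arrays gave 13 calls at fewest, without lean control 1, obese control 2 or obese control 3, and 21 at most, without lean control 3. In the same order, 12.8%, 12.1%, 12% and 16.6% of all genes were called. Without trend and robust settings the calls of Gstk1, Mgst3, Gpx1, Txnip, Cat and Ggt1 were lost, and without the filter those of Mgst3, Txnip and Cat.

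On control diet alone, 7 genes differed, 2 higher and 5 lower in obese rats, or 15.6% beside 5.51% of all genes. Gpx1 and Ucp2 rose, and Gstt1, Gstk1, Gstz1, Sod1 and Cyba fell. On rosiglitazone 9 genes differed, 3 higher and 6 lower, or 20% beside 6.02% of all genes. Gstm2, Ucp2 and Srxn1 rose, and Gstt1, Mgst3, Prdx6, Sod1, Gclc and Cyba fell. These comparisons use the same arrays as the combined one and add no independent evidence to it. With 3 arrays a group the counts moved with single arrays. The control diet count was 2 without lean control 1 or 2, 3 without obese control 1, 1 without obese control 2 or 3 and 11 without lean rosiglitazone 3. In the same order, 2.32%, 3.4%, 3.36%, 2%, 2.11% and 6.22% of all genes were called. The rosiglitazone count was 4 without lean rosiglitazone 1, 5 without lean rosiglitazone 2, 3 without obese rosiglitazone 2, and 4 without obese rosiglitazone 1 or 3. Here 3.27%, 4.23%, 2.92%, 3% and 3.23% of all genes were called. Quantile normalization gave 4 higher and 4 lower on control diet and 2 higher and 2 lower on rosiglitazone, beside 5.37% and 5.8% of all genes. Median centring gave 0 higher and 1 lower, and 2 higher and 2 lower, beside 2.99% and 2.94%. Of the single-diet calls, those of Gstt1 on both diets and of Gstm2 and Cyba on rosiglitazone were kept in all 22 alternatives that used arrays of both cre classes. Without trend and robust settings they were the only calls left, and with median-centred arrays the call of Ucp2 on rosiglitazone was left as well. Without the filter Gstk1, Gstz1 and Ucp2 lost their calls on control diet and Sod1 on rosiglitazone. Within a cre class no gene passed on control diet, and on rosiglitazone Gstm2, Cyba and Srxn1 passed in the lower class.

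**Figure D1:**
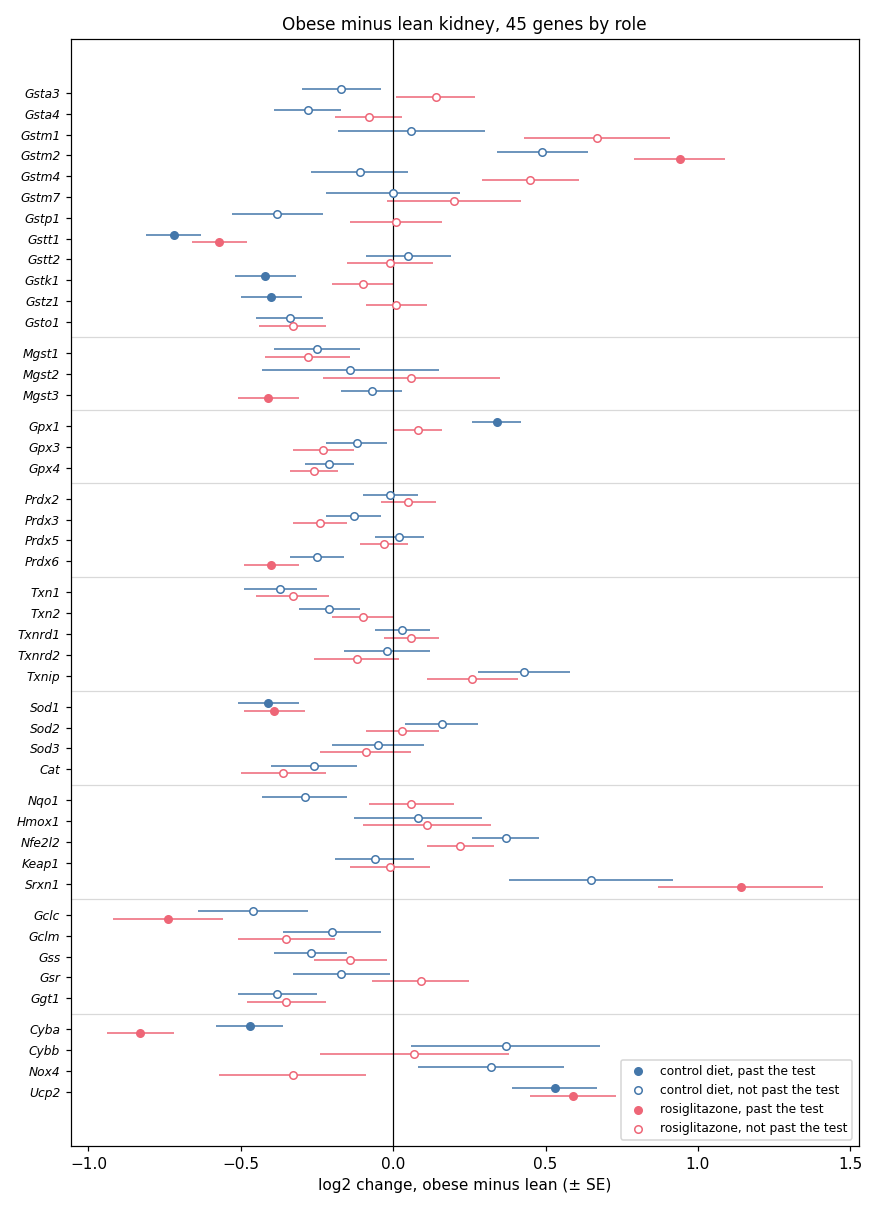
Log2 change with SE of the 45 genes between obese and lean kidneys, ordered by role, on control diet (blue) and on rosiglitazone (red), 3 arrays a group. Filled points are genes past the test in that comparison: 7 on control diet, with Gstt1 lowest at -0.72, and 9 on rosiglitazone, with Srxn1 highest at 1.14 and Cyba lowest at -0.83.

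Among the 12 cytosolic, mitochondrial and peroxisomal glutathione S-transferases tested, 1 rose over both diets (Gstm2), 3 fell (Gstt1, Gstk1 and Gsto1) and 8 did not pass the test. Gstt1 encodes a theta class transferase that conjugates small halogenated compounds. Gstt1 signals were 1540, 1631 and 1540 in lean controls, 1667, 1546 and 1516 in lean rats on rosiglitazone, 993, 931 and 910 in obese controls and 998, 1041 and 1129 in obese rats on rosiglitazone. All obese arrays lay below all lean arrays. The change was -0.72 (SE 0.09, adjusted p = 0.000417) on control diet, -0.57 (SE 0.09, adjusted p = 0.00271) on rosiglitazone and -0.65 (SE 0.06, adjusted p = 2.1e-05) over both, or 1.57-fold lower. Within the lower cre class it was -0.62 (SE 0.10, adjusted p = 0.0122) over both diets.

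Gstm2, a mu class transferase, went the other way. Gstm2 signals were 1543, 1252 and 1622 in lean controls, 1447, 1497 and 1222 in lean rats on rosiglitazone, 1804, 2150 and 2241 in obese controls and 2111, 3028 and 2969 in obese rats on rosiglitazone. The lowest obese array, at 1804, lay above the highest lean array, at 1622, and the brightest arrays were 2 of the obese rats on rosiglitazone. Means were 1472 ± 195 (SD, n = 3) in lean and 2065 ± 230 in obese controls, and 1389 ± 146 in lean and 2703 ± 513 in obese rats on rosiglitazone. The log2 change was 0.71 (SE 0.10, adjusted p = 0.000535) over both diets, a 1.64-fold rise. It was 0.49 (SE 0.15, adjusted p = 0.0785) on control diet and 0.94 (SE 0.15, adjusted p = 0.00274) on rosiglitazone. Its neighbour in the mu class, Gstm1, read 630, 1380 and 993 in obese rats on rosiglitazone and 459 to 743 in the other 9 arrays, and on that diet the change of 0.67 (SE 0.24, adjusted p = 0.125) did not pass. Mu class genes are close in sequence, and cross-hybridization between them was not tested.

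Gstk1 encodes the kappa class enzyme of mitochondria and peroxisomes, and Gsto1 the omega class enzyme, which reduces dehydroascorbate. Gstk1 signals were 2828, 2667 and 2616 in lean controls, 2183, 2677 and 2351 in lean rats on rosiglitazone, 2183, 1865 and 2006 in obese controls and 2425, 2360 and 1967 in obese rats on rosiglitazone. Lean and obese arrays were apart on control diet and overlapped on rosiglitazone. The change was -0.42 (SE 0.10, adjusted p = 0.035) on control diet, -0.10 (SE 0.10, adjusted p = 0.678) on rosiglitazone and -0.26 (SE 0.07, adjusted p = 0.0315) over both. The Gstk1 call on control diet was kept in 14 of 22 alternatives, and lost without any one of lean control 1, 2 or 3 or obese control 2 or 3 (adjusted p from 0.0548 to 0.155). The Gstk1 call over both diets was kept in 13 of 22 alternatives, and lost with the cre class as a covariate at -0.21 (adjusted p = 0.128) and with median-centred arrays at -0.28 (adjusted p = 0.0892), and without any one of lean control 1 or 2, lean rosiglitazone 2, obese control 2 or 3 or obese rosiglitazone 3 (adjusted p from 0.0523 to 0.0847). For Gstk1 the change over both diets was -0.25 (adjusted p = 0.201) within the lower cre class. Gsto1 signals were 10612, 9889 and 9014 in lean controls, 10144, 11874 and 8682 in lean rats on rosiglitazone, 8442, 7553 and 7259 in obese controls and 8135, 8580 and 7609 in obese rats on rosiglitazone. Every obese array lay below the lean arrays of the same diet. The change of Gsto1 over both diets was -0.33 (SE 0.08, adjusted p = 0.0106), with -0.34 on control diet and -0.33 on rosiglitazone, neither past the test. The Gsto1 call over both diets was kept in 21 of 22 alternatives, and lost with median-centred arrays at -0.36 (adjusted p = 0.0544). For Gsto1 the change over both diets was -0.22 (adjusted p = 0.0346) with the cre class as a covariate. It was -0.18 (adjusted p = 0.0218) under quantile normalization and -0.19 (adjusted p = 0.128) within the lower cre class.

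Gstz1, the zeta class enzyme that also acts in tyrosine breakdown, fell in obese rats on control diet. Gstz1 signals were 3035, 3996 and 3586 in lean controls, 2917, 3176 and 3117 in lean rats on rosiglitazone, 2773, 2531 and 2667 in obese controls and 3011, 3324 and 2964 in obese rats on rosiglitazone. The obese controls were the 3 lowest of the 12 arrays. The change was -0.40 (SE 0.10, adjusted p = 0.0332) on control diet and 0.01 (SE 0.10, adjusted p = 0.961) on rosiglitazone, and over both diets it was -0.20 (SE 0.07, adjusted p = 0.081), not past the test. The Gstz1 call on control diet was kept in 13 of 22 alternatives, and lost under quantile normalization at -0.34 (adjusted p = 0.0589), and without any one of lean control 2 or 3 or obese control 1, 2 or 3 (adjusted p from 0.0594 to 0.139). The other 7 transferases, Gsta3, Gsta4, Gstm1, Gstm4, Gstm7, Gstp1 and Gstt2, did not pass in any comparison. Gstp1, the pi class enzyme, read 9449 to 14137 in lean and 7860 to 13161 in obese arrays. Of the alpha class, Gsta4, which conjugates products of lipid peroxidation, read 5451 to 7102 in lean and 4977 to 5868 in obese arrays, and Gsta3 read 563 to 736 in lean and 570 to 762 in obese arrays. Gsta4 had a change over both diets of -0.18 (SE 0.08, adjusted p = 0.132), and Gsta3 of -0.02 (SE 0.09, adjusted p = 0.929). The remaining mu class genes had ranges that overlapped, with 268 to 511 in lean and 416 to 538 in obese arrays for Gstm4 and 872 to 1185 in lean and 715 to 1600 in obese arrays for Gstm7. Gstt2, the second theta class gene, read 1258 to 1936 in lean and 1448 to 1804 in obese arrays, and its further probe set did not pass either.

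The 3 microsomal transferases sit in membranes and also handle lipid peroxides and leukotrienes. Mgst3 fell over both diets, and Mgst1 and Mgst2 did not pass. Mgst3 signals were 7758, 7119 and 6807 in lean controls, 8190, 8481 and 8401 in lean rats on rosiglitazone, 7722, 7014 and 6027 in obese controls and 5580, 6585 and 6784 in obese rats on rosiglitazone. The groups were apart on rosiglitazone, where lean arrays were bright, and overlapped on control diet. The change was -0.41 (SE 0.10, adjusted p = 0.0331) on rosiglitazone and -0.24 (SE 0.07, adjusted p = 0.0389) over both diets. On control diet it was -0.07 (SE 0.10, adjusted p = 0.782), and there quantile normalization gave 0.09. The Mgst3 call on rosiglitazone was kept in 12 of 22 alternatives, and lost with the cre class as a covariate at -0.33 (adjusted p = 0.0925) and under quantile normalization at -0.25 (adjusted p = 0.12), and without any one of lean rosiglitazone 1, 2 or 3 or obese rosiglitazone 1, 2 or 3 (adjusted p from 0.0501 to 0.133). The Mgst3 call over both diets was kept in 8 of 22 alternatives, and lost with the cre class as a covariate at -0.18 (adjusted p = 0.139), with median-centred arrays at -0.26 (adjusted p = 0.0965) and under quantile normalization at -0.08 (adjusted p = 0.423), and without any one of lean control 1 or 2, lean rosiglitazone 1, 2 or 3, obese control 2 or 3 or obese rosiglitazone 1 or 2 (adjusted p from 0.0536 to 0.105). For Mgst3 the change over both diets was -0.24 (adjusted p = 0.178) within the lower cre class. Mgst1, the most studied microsomal enzyme, read 6415 to 8602 in lean and 5568 to 7588 in obese arrays, a change of -0.27 (SE 0.10, adjusted p = 0.0904) over both diets. Mgst2 was dim, at 140 to 370 in lean and 155 to 252 in obese arrays.

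Of the 3 glutathione peroxidases, 1 rose, 1 fell and 1 did not pass over both diets. Gpx1 encodes the abundant cytosolic form that reduces hydrogen peroxide. Gpx1 signals were 8026, 8561 and 8353 in lean controls, 9447, 8558 and 8117 in lean rats on rosiglitazone, 10836, 10288 and 10364 in obese controls and 8458, 9784 and 9290 in obese rats on rosiglitazone. The obese controls were the 3 brightest arrays, and on rosiglitazone lean and obese arrays overlapped. The change was 0.34 (SE 0.08, adjusted p = 0.0301) on control diet, 0.08 (SE 0.08, adjusted p = 0.666) on rosiglitazone and 0.21 (SE 0.06, adjusted p = 0.0266) over both. The Gpx1 call on control diet was kept in 14 of 22 alternatives, and lost without any one of lean control 1, 2 or 3 or obese control 1, 2 or 3 (adjusted p from 0.0511 to 0.108). The Gpx1 call over both diets was kept in 13 of 22 alternatives, and lost with median-centred arrays at 0.18 (adjusted p = 0.215), and without any one of lean control 1, lean rosiglitazone 2 or 3, obese control 1 or 3 or obese rosiglitazone 2 or 3 (adjusted p from 0.0502 to 0.0737). For Gpx1 the change over both diets was 0.36 (adjusted p = 0.000839) under quantile normalization and 0.24 (adjusted p = 0.0771) within the lower cre class. Gpx4, which reduces lipid peroxides in membranes, moved in the opposite direction. Gpx4 signals were 9550, 9229 and 9072 in lean controls, 9776, 9977 and 9091 in lean rats on rosiglitazone, 8378, 7306 and 8402 in obese controls and 7739, 8366 and 7960 in obese rats on rosiglitazone. Every obese array lay below the lean arrays. The change was -0.24 (SE 0.06, adjusted p = 0.0113) over both diets, -0.21 on control diet and -0.26 on rosiglitazone. The Gpx4 call over both diets was kept in 20 of 22 alternatives, and lost with median-centred arrays at -0.26 (adjusted p = 0.0742) and under quantile normalization at -0.09 (adjusted p = 0.183). For Gpx4 the change over both diets was -0.20 (adjusted p = 0.15) within the lower cre class. Gpx3, the secreted form made largely in the kidney, read 16841 to 21617 in lean and 14763 to 18880 in obese arrays, with a change of -0.18 (SE 0.07, adjusted p = 0.105) that did not pass.

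Of the 4 peroxiredoxins tested, Prdx6 fell and Prdx2, Prdx3 and Prdx5 did not pass. Prdx6 is the peroxiredoxin that draws on glutathione rather than thioredoxin. Prdx6 signals were 5792, 4910 and 4959 in lean controls, 5728, 5467 and 5902 in lean rats on rosiglitazone, 4950, 3946 and 4326 in obese controls and 4269, 4279 and 4433 in obese rats on rosiglitazone. The obese rats on rosiglitazone lay below all other arrays but 2 of the obese controls, and on control diet obese and lean arrays overlapped. The change was -0.40 (SE 0.09, adjusted p = 0.0275) on rosiglitazone, -0.25 (SE 0.09, adjusted p = 0.168) on control diet and -0.32 (SE 0.07, adjusted p = 0.00569) over both. Within the lower cre class it was -0.35 (SE 0.07, adjusted p = 0.0262) over both diets. The Prdx6 call on rosiglitazone was kept in 13 of 22 alternatives, and lost with the cre class as a covariate at -0.33 (adjusted p = 0.0796) and under quantile normalization at -0.28 (adjusted p = 0.0811), and without any one of lean rosiglitazone 1 or 3 or obese rosiglitazone 1, 2 or 3 (adjusted p from 0.0682 to 0.0845). Prdx2, which is also abundant in red blood cells, read 4176 to 5028 in lean and 4414 to 5028 in obese arrays, a change of 0.02 (SE 0.06, adjusted p = 0.875). The mitochondrial peroxiredoxin Prdx3 read 2949 to 3642 in lean and 2644 to 3171 in obese arrays, a change of -0.18 (SE 0.06, adjusted p = 0.074). Prdx5, found in mitochondria, peroxisomes and the cytosol, read 5293 to 6288 in lean and 5132 to 6295 in obese arrays and had a change of -0.00.

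In the thioredoxin system 1 of 5 genes rose (Txnip), 1 fell (Txn1), and Txn2, Txnrd1 and Txnrd2 did not pass. Txn1 is the cytosolic thioredoxin that reduces peroxiredoxins. Txn1 signals were 14388, 13398 and 11305 in lean controls, 14411, 13545 and 10521 in lean rats on rosiglitazone, 11123, 9378 and 9584 in obese controls and 9914, 10064 and 10287 in obese rats on rosiglitazone. Within each diet the obese arrays lay below the lean ones, and lean control 3 and lean rosiglitazone 3 were the lowest lean arrays. The change was -0.37 (SE 0.12, adjusted p = 0.0931) on control diet, -0.33 (SE 0.12, adjusted p = 0.128) on rosiglitazone and -0.35 (SE 0.08, adjusted p = 0.0119) over both. For Txn1 the change over both diets was -0.20 (adjusted p = 0.0153) with the cre class as a covariate, -0.16 (adjusted p = 0.0203) under quantile normalization and -0.16 (adjusted p = 0.119) within the lower cre class. Txnip encodes a protein that binds and inhibits thioredoxin and whose transcription is known to respond to glucose. Txnip signals were 5853, 5927 and 5362 in lean controls, 7245, 5719 and 4717 in lean rats on rosiglitazone, 7635, 8011 and 7422 in obese controls and 5462, 7939 and 7717 in obese rats on rosiglitazone. Obese controls lay above the lean controls, and the groups on rosiglitazone overlapped. The change was 0.34 (SE 0.11, adjusted p = 0.046) over both diets, 0.43 on control diet and 0.26 on rosiglitazone, neither of these past the test. The Txnip call over both diets was kept in 8 of 22 alternatives, and lost with median-centred arrays at 0.32 (adjusted p = 0.12) and with the replicate block at 0.34 (adjusted p = 0.0625), and without any one of lean control 1, 2 or 3, lean rosiglitazone 2 or 3, obese control 1, 2 or 3 or obese rosiglitazone 2 or 3 (adjusted p from 0.0667 to 0.107). For Txnip the change over both diets was 0.54 (adjusted p = 0.0602) within the lower cre class. Quantile normalization gave 0.48 (SE 0.10, adjusted p = 0.00554) and the cre class as a covariate 0.44 (SE 0.11, adjusted p = 0.0263). Txn2, the mitochondrial thioredoxin, had a change of -0.15 (SE 0.07, adjusted p = 0.19). The cytosolic and mitochondrial thioredoxin reductases Txnrd1 and Txnrd2 had changes of 0.05 and -0.07, with SEs of 0.07 and 0.10.

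Sod1 and Cat fell over both diets, while Sod2 and Sod3, the mitochondrial and extracellular superoxide dismutases, did not pass. Sod1 is the cytosolic copper and zinc enzyme. Sod1 signals were 16152, 15912 and 14060 in lean controls, 15359, 16227 and 12316 in lean rats on rosiglitazone, 12177, 10838 and 11648 in obese controls and 11304, 10718 and 11318 in obese rats on rosiglitazone. All 6 obese arrays lay below all 6 lean arrays. The change was -0.41 (SE 0.10, adjusted p = 0.0316) on control diet, -0.39 (SE 0.10, adjusted p = 0.0391) on rosiglitazone and -0.40 (SE 0.07, adjusted p = 0.00198) over both. For Sod1 the change over both diets was -0.21 (adjusted p = 0.0037) under quantile normalization and -0.24 (adjusted p = 0.0458) within the lower cre class. The Sod1 call on control diet was kept in 16 of 22 alternatives, and lost without any one of lean control 1 or 2 or obese control 2 or 3 (adjusted p from 0.0997 to 0.136). For Sod1 the change on control diet was -0.24 (adjusted p = 0.0307) under quantile normalization. The Sod1 call on rosiglitazone was kept in 11 of 22 alternatives, and lost with the cre class as a covariate at -0.24 (adjusted p = 0.0719) and under quantile normalization at -0.19 (adjusted p = 0.0868), and without any one of lean rosiglitazone 1 or 2, obese control 3 or obese rosiglitazone 1, 2 or 3 (adjusted p from 0.0609 to 0.132). For Sod1 the change on rosiglitazone was -0.15 (adjusted p = 0.321) within the lower cre class. Cat encodes catalase of peroxisomes. Cat signals were 15358, 14080 and 10841 in lean controls, 14473, 15025 and 11316 in lean rats on rosiglitazone, 12814, 10268 and 10390 in obese controls and 9754, 10964 and 10890 in obese rats on rosiglitazone. Lean control 3 and lean rosiglitazone 3, the lower class arrays of the lean groups, were its lowest lean arrays, and both lay within the range of the 6 obese arrays. Within diets, only the control groups overlapped. The change was -0.31 (SE 0.10, adjusted p = 0.0473) over both diets, -0.26 on control diet and -0.36 on rosiglitazone. The Cat call over both diets was kept in 8 of 22 alternatives, and lost with the cre class as a covariate at -0.12 (adjusted p = 0.142), with median-centred arrays at -0.33 (adjusted p = 0.11) and under quantile normalization at -0.11 (adjusted p = 0.195), and without any one of lean control 1 or 2, lean rosiglitazone 1 or 2, obese control 2 or 3 or obese rosiglitazone 1, 2 or 3 (adjusted p from 0.0702 to 0.114). For Cat the change over both diets was -0.09 (adjusted p = 0.46) within the lower cre class. Sod2 read 2539 to 3339 in lean and 2472 to 3563 in obese arrays, and Sod3 2083 to 2830 in lean and 1920 to 2770 in obese arrays, with changes of 0.10 (SE 0.09) and -0.07 (SE 0.11) over both diets.

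Of the 5 genes of glutathione synthesis, reduction and breakdown, Gclc and Ggt1 fell, and Gclm, Gss, the second synthesis enzyme, and Gsr, glutathione reductase, did not pass. Gclc signals were 28055, 22538 and 18556 in lean controls, 28118, 25160 and 19298 in lean rats on rosiglitazone, 18603, 16880 and 14277 in obese controls and 11195, 16042 and 16192 in obese rats on rosiglitazone. Obese rats on rosiglitazone lay below lean rats on rosiglitazone, while lean control 3 was just below obese control 1. Means were 23050 ± 4770 (SD, n = 3) in lean and 16587 ± 2178 in obese controls, and 24192 ± 4489 and 14476 ± 2843 on rosiglitazone. The change was -0.46 (SE 0.18, adjusted p = 0.184) on control diet, -0.74 (SE 0.18, adjusted p = 0.0351) on rosiglitazone and -0.60 (SE 0.13, adjusted p = 0.00779) over both, or 1.52-fold lower. A second Gclc probe set fell as well, by 0.46 on the log2 scale over both diets (SE 0.09, adjusted p = 0.00297). The Gclc call over both diets was kept in 21 of 22 alternatives, and lost under quantile normalization at -0.26 (adjusted p = 0.125). For Gclc the change over both diets was -0.35 (adjusted p = 0.222) within the lower cre class. The Gclc call on rosiglitazone was kept in 12 of 22 alternatives, and lost with the cre class as a covariate at -0.48 (adjusted p = 0.0899) and under quantile normalization at -0.34 (adjusted p = 0.231), and without any one of lean rosiglitazone 1 or 2, obese control 2 or obese rosiglitazone 1, 2 or 3 (adjusted p from 0.0513 to 0.128). For Gclc the change on rosiglitazone was -0.43 (adjusted p = 0.286) within the lower cre class.

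Gclm, the partner subunit, read 9756 to 15409 in lean and 10196 to 12896 in obese arrays. Lean control 3, of the lower cre class, was its lowest array. Its change over both diets was -0.28 (SE 0.11, adjusted p = 0.129), and within the lower cre class it was 0.04 (SE 0.06, adjusted p = 0.753). Ggt1 signals were 21384, 20303 and 17010 in lean controls, 20895, 21160 and 16169 in lean rats on rosiglitazone, 17464, 12515 and 15267 in obese controls and 16529, 14325 and 14635 in obese rats on rosiglitazone. Lean control 3 and lean rosiglitazone 3 lay within the obese range. The change of Ggt1 was -0.36 (SE 0.09, adjusted p = 0.0191) over both diets, -0.38 on control diet and -0.35 on rosiglitazone. The Ggt1 call over both diets was kept in 17 of 22 alternatives, and lost with the cre class as a covariate at -0.20 (adjusted p = 0.051), with median-centred arrays at -0.39 (adjusted p = 0.0583) and under quantile normalization at -0.08 (adjusted p = 0.386), and without lean control 1 (adjusted p = 0.0504). For Ggt1 the change over both diets was -0.20 (adjusted p = 0.219) within the lower cre class. Gss read 7323 to 11079 in lean and 7298 to 9472 in obese arrays, a change of -0.20 (SE 0.09, adjusted p = 0.138), and Gsr read 781 to 1128 in lean and 749 to 1177 in obese arrays, a change of -0.04 (SE 0.11, adjusted p = 0.868).

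**Figure D2:**
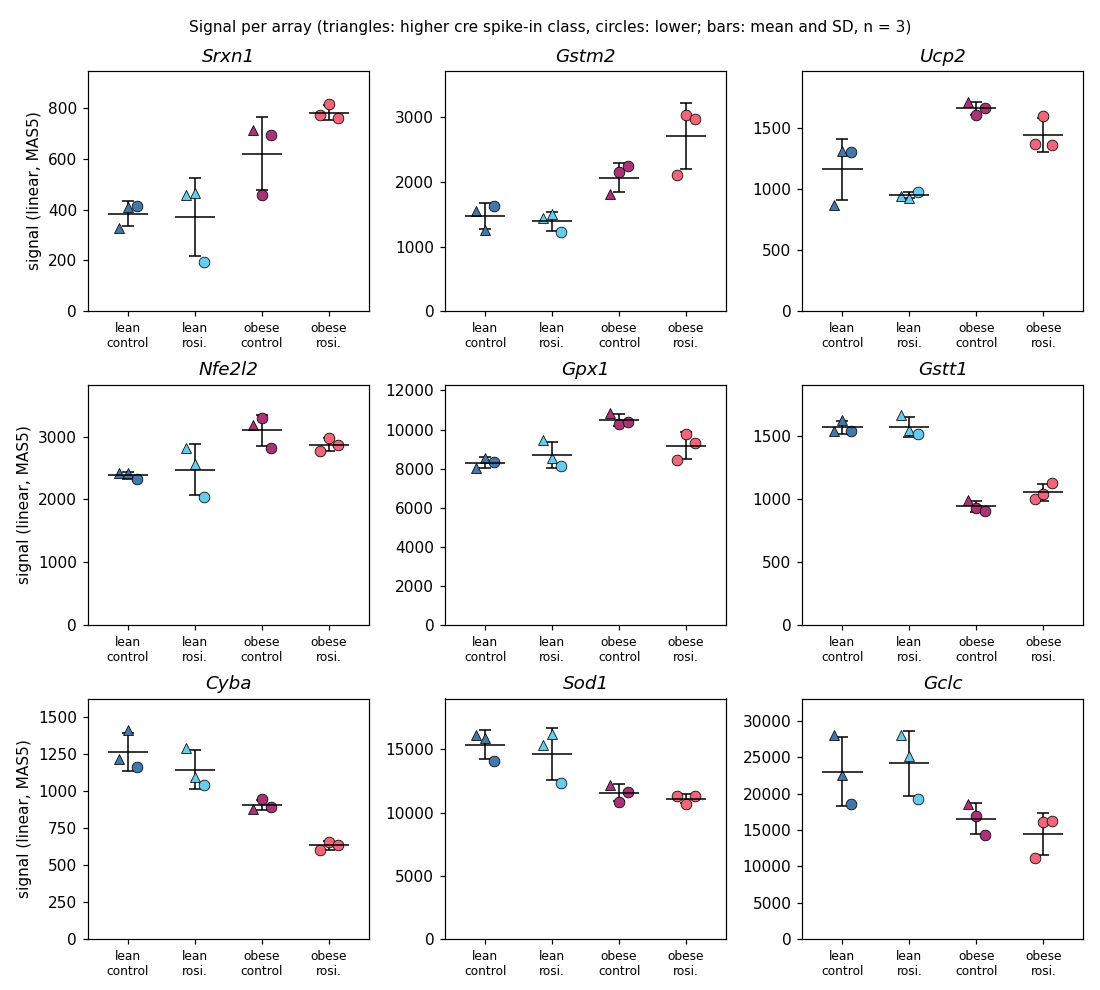
Signal of 9 genes in each of the 12 arrays, with group means and SD (n = 3 arrays a group) on a linear axis from 0. Triangles are arrays of the higher cre class. Gstt1 and Cyba are lower in all obese arrays, and Gstm2 and Ucp2 higher in all; Gclc and Sod1 show the lean arrays of the lower class below the other lean arrays of their group.

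In the Nrf2 pathway, Nfe2l2 and Srxn1 rose over both diets, and Keap1, Nqo1 and Hmox1 did not pass. Nfe2l2 signals were 2422, 2414 and 2320 in lean controls, 2825, 2559 and 2040 in lean rats on rosiglitazone, 3185, 3298 and 2824 in obese controls and 2769, 2975 and 2861 in obese rats on rosiglitazone. Obese controls lay above lean controls, and 1 lean array on rosiglitazone lay within the obese range. The change was 0.37 (SE 0.11, adjusted p = 0.0657) on control diet, 0.22 (SE 0.11, adjusted p = 0.273) on rosiglitazone and 0.30 (SE 0.08, adjusted p = 0.0185) over both. The Nfe2l2 call over both diets was kept in 20 of 22 alternatives, and lost with median-centred arrays at 0.28 (adjusted p = 0.104), and without obese control 2 (adjusted p = 0.0517). Within the lower cre class it was 0.44 (SE 0.09, adjusted p = 0.0283).

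Srxn1 encodes sulfiredoxin, which repairs overoxidized peroxiredoxins and is a known Nrf2 and AP-1 target. Srxn1 signals were 326, 411 and 415 in lean controls, 457, 463 and 193 in lean rats on rosiglitazone, 712, 456 and 692 in obese controls and 772, 813 and 758 in obese rats on rosiglitazone. Within each diet every obese array lay above the lean ones, and the faintest array, lean rosiglitazone 3, stood well below its group. Means were 384 ± 50.1 (SD, n = 3) in lean and 620 ± 142 in obese controls, and 371 ± 154 and 781 ± 28.6 on rosiglitazone. The change was 0.65 (SE 0.27, adjusted p = 0.204) on control diet, 1.14 (SE 0.27, adjusted p = 0.0279) on rosiglitazone and 0.89 (SE 0.19, adjusted p = 0.00695) over both, a 1.86-fold rise. The Srxn1 call on rosiglitazone was kept in 15 of 22 alternatives, and lost with the mean of its probe sets at 0.62 (adjusted p = 0.0511) and under quantile normalization at 1.13 (adjusted p = 0.051), and without any one of obese rosiglitazone 1, 2 or 3 (adjusted p from 0.0729 to 0.0864). For Srxn1 the change on rosiglitazone was 1.93 within the lower cre class, where lean rosiglitazone 3, at 193, is the only lean array on that diet. Without lean rosiglitazone 3 the change on rosiglitazone was 0.74 (adjusted p = 0.0378). For Srxn1 the change over both diets was 0.53 (adjusted p = 0.00996) with the mean of its probe sets. A second Srxn1 probe set showed 0.17 over both diets (SE 0.17, adjusted p = 0.572), and the signals of another were below the filter. Nqo1 and Hmox1, the quinone reductase and heme oxygenase that serve as textbook Nrf2 targets, read 790 to 1088 and 146 to 234 in lean arrays and 738 to 971 and 168 to 217 in obese arrays. The changes over both diets were -0.11 (SE 0.10, adjusted p = 0.51) for Nqo1 and 0.10 (SE 0.15, adjusted p = 0.717) for Hmox1. Keap1 read 588 to 821 in lean and 647 to 782 in obese arrays, a change of -0.04 (SE 0.09, adjusted p = 0.839).

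Among the 3 genes of oxidant sources, Cyba fell and Cybb and Nox4 did not pass. Cyba encodes p22phox, the membrane subunit shared by several NADPH oxidases, Cybb the catalytic subunit of phagocytes and Nox4 the catalytic subunit abundant in kidney tubules. Cyba signals were 1215, 1409 and 1164 in lean controls, 1290, 1095 and 1040 in lean rats on rosiglitazone, 875, 943 and 893 in obese controls and 599, 658 and 638 in obese rats on rosiglitazone. All obese arrays lay below all lean arrays, and obese rats on rosiglitazone were lowest. The change was -0.47 (SE 0.11, adjusted p = 0.0259) on control diet, -0.83 (SE 0.11, adjusted p = 0.000833) on rosiglitazone and -0.65 (SE 0.08, adjusted p = 0.000118) over both, or 1.57-fold lower. It was -0.52 (SE 0.11, adjusted p = 0.0273) over both diets within the lower cre class. The Cyba call on control diet was kept in 15 of 22 alternatives, and lost without any one of lean control 1 or 2 or obese control 1, 2 or 3 (adjusted p from 0.0648 to 0.102). Cybb was dim, at 144 to 329 in lean and 182 to 303 in obese arrays, and Nox4 had a change over both diets of -0.01 (SE 0.17, adjusted p = 0.986).

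Ucp2, a carrier of the inner mitochondrial membrane related to the uncoupling protein of brown fat, rose. Ucp2 signals were 871, 1311 and 1305 in lean controls, 947, 926 and 974 in lean rats on rosiglitazone, 1714, 1604 and 1666 in obese controls and 1371, 1603 and 1361 in obese rats on rosiglitazone. All obese arrays lay above all lean arrays. The change was 0.53 (SE 0.14, adjusted p = 0.0397) on control diet, 0.59 (SE 0.14, adjusted p = 0.023) on rosiglitazone and 0.56 (SE 0.10, adjusted p = 0.00161) over both, a 1.48-fold rise. Over both diets it was 0.44 (SE 0.10, adjusted p = 0.0455) within the lower cre class. The Ucp2 call on control diet was kept in 12 of 22 alternatives, and lost with the cre class as a covariate at 0.50 (adjusted p = 0.0589), and without any one of lean control 1, lean rosiglitazone 1, obese control 1, 2 or 3 or obese rosiglitazone 3 (adjusted p from 0.0509 to 0.119), with a change of 0.34 without lean control 1. For Ucp2 the change on control diet was 0.32 (adjusted p = 0.418) within the lower cre class. The Ucp2 call on rosiglitazone was kept in 16 of 22 alternatives, and lost with the cre class as a covariate at 0.53 (adjusted p = 0.0823), and without any one of lean rosiglitazone 1 or 2 or obese rosiglitazone 1 or 2 (adjusted p from 0.052 to 0.0937).

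Of the 12 downward calls, 7 were among the brightest probe sets. At a mean signal of 8000 or more there were 12 of these genes, of which 11 lay below 0 over both diets and 8 were called, Gpx1 upward and 7 downward. Of all 190 genes that bright, 90% lay below 0 and 44.2% were called, with a median change of -0.20 beside -0.29 for the 12. Between 3000 and 8000 the medians were -0.18 for 11 of these genes and -0.08 for all. Between 1000 and 3000 they were 0.05 for 9 genes and 0.00 for all. Below 1000 they were -0.02 for 13 genes and 0.05 for all. In these ranges the calls were 3 of 11, 5 of 9 and 2 of 13, beside 33.3%, 22% and 11.4% of all genes. Below 0 lay 8 of 11, 3 of 9 and 8 of 13, beside 65.5%, 49% and 40.4% of all genes. Within groups, arrays of the higher cre class read above those of the lower class by a median of 0.30 on the log2 scale for the 12 bright genes and 0.19 for all 190. The only lower class array of the lean controls was the lowest of its group in 10 of the 12 genes, and that of lean rats on rosiglitazone in 11. With the class as a covariate the medians were -0.17 for the 12 and -0.10 for the 190, with 6 of the 12 called. Under quantile normalization they were -0.09 and -0.02, with 4 called, and within the lower class -0.15 and -0.10, with 1 called. The share of the 190 called under these settings was not counted. Gstt1, Cyba, Gstm2, Ucp2 and Srxn1 were below a mean signal of 2000. Each kept its call over both diets with the class as a covariate and under quantile normalization. The same held for Nfe2l2, Prdx6 and Txnip between 2000 and 8000 and for Gsto1, Gpx1, Txn1 and Sod1 at 8000 or more. Within the lower class, with 1 lean array a diet, the first named changed by -0.62, -0.52, 0.77, 0.44 and 1.18. Nfe2l2, Prdx6 and Txnip changed there by 0.44, -0.35 and 0.54, and Gsto1, Gpx1, Txn1 and Sod1 by -0.19, 0.24, -0.16 and -0.24.

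**Figure D3:**
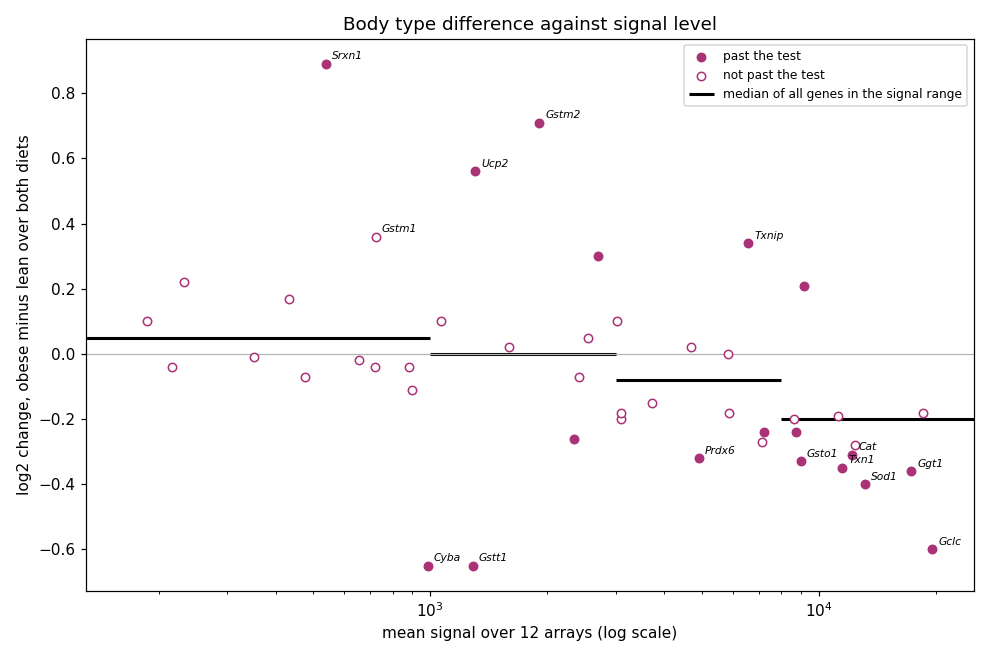
Log2 change between obese and lean kidneys over both diets against the mean signal of each gene (log axis), for the 45 genes, with black lines for the median of all genes tested in 4 signal ranges. The median of all genes goes from 0.05 below a signal of 1000 to -0.20 at 8000 and above, and Gstt1, Cyba, Gstm2, Ucp2 and Srxn1 lie far from the line of their range.

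Markers of the proximal tubule moved with body type too. Of the 10 on the list, all tested, 8 were lower and 1, Slc5a2, was higher in obese kidneys over both diets. Over both diets 8.6% of all genes were higher and 7.73% lower, which applies to each list here. Lrp2, Slc34a1, Slc7a13 and Miox had group means above 8000. Of all genes with a mean signal of 8000 or more, 90% lay below 0 and 44.2% were called. Marker counts come from the main fit only. Slc5a2 read 36.5 to 57.6 in the lean arrays of the higher cre class and 502 and 667 in those of the lower class. It read 759, 1163 and 1704 in obese controls and 165, 1134 and 829 in obese rats on rosiglitazone. The summed signal of the 10 was 75919 to 91592 in lean controls and 77673 to 93569 in lean rats on rosiglitazone. It was 61953 to 68723 and 57238 to 62753 in the obese groups, with no overlap between body types. Of 3 red blood cell genes tested out of 6 listed, 2 were higher in obese kidneys over both diets, and the summed signal of the 4 with a probe set was 7021 to 11378 in lean controls, 4201 to 7795 in lean rats on rosiglitazone, 7032 to 9716 in obese controls and 8890 to 14632 in obese rats on rosiglitazone. Of 7 fat cell genes tested out of 8, 6 were lower over both diets, and their sum in the same order was 4643 to 7768, 11183 to 20543, 2762 to 3216 and 5776 to 7171. Of 6 leukocyte markers tested out of 8, 1 was higher and 1 lower, with sums of 8845 to 11519, 9791 to 10991, 9886 to 13062 and 8422 to 9921. Of 5 collecting duct and thick limb markers 2 were higher and 1 was lower, with sums from 38278 to 44957 over all arrays, and of 3 endothelial markers 0 passed, with sums from 2156 to 4278. The part of these cell types in the differences above was not tested.

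Rosiglitazone was compared with control diet in each body type, to ask what the drug does to these genes. None of the 45 genes passed limma's test in lean rats, in obese rats or with the body types combined, beside 0.0095%, 0.105% and 0.0855% of all genes. At an unadjusted p under 0.05 there were 1 gene in lean rats, 8 in obese ones and 4 with both combined, or 2.22%, 17.8% and 8.89%, beside 4.52%, 5.66% and 5.59% of all genes. The median SE of a change was 0.13 within a body type. The count of calls was 0 in all alternatives run for these comparisons. The rosiglitazone comparisons share their arrays with those between body types, so their values are set side by side and not correlated. Fat cell genes moved with the drug: 2 of the 7 tested were higher over both body types, and the sums given above did not overlap between the diets in either body type. The part of fat cells in the values below was not tested.

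In obese rats Cyba had the smallest p of these genes. Its arrays read 875, 943 and 893 on control diet and 599, 658 and 638 on rosiglitazone and did not overlap. The change was -0.51 (SE 0.11, adjusted p = 0.173), unadjusted p = 0.000401, and adjusted p lay between 0.0953 and 0.659 over its alternatives. In lean rats it was -0.14 (SE 0.11, adjusted p = 0.981), and over both body types -0.33 (SE 0.08, adjusted p = 0.329). Nox4 read 430, 508 and 391 in obese controls and 175, 338 and 303 in obese rats on rosiglitazone, again without overlap, and 489, 273 and 321 and 350, 285 and 371 in the lean groups. Its change was -0.71 (SE 0.24, adjusted p = 0.697), the widest among the 45 genes, and in lean rats its arrays overlapped.

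Of the 45 genes tested, 12 were glutathione S-transferases and 3 were microsomal transferases. Glutathione S-transferases made up 5 of the 8 genes at an unadjusted p under 0.05 in obese rats. Each had a value above 0 and none passed the test. The changes were 0.53 for Gstm1, 0.37 for Gstm2, 0.37 for Gstp1, 0.28 for Gsta3 and 0.22 for Gstz1, with adjusted p from 0.914 to 0.987. Arrays did not overlap for Gstp1, with 10149, 7860 and 9479 on control diet and 11251, 10988 and 13161 on rosiglitazone. Nor did they overlap for Gstz1 and Gsta3, the latter an alpha class enzyme with 600, 570 and 596 against 736, 762 and 659. Gpx1 went the other way, at -0.20 (SE 0.08, adjusted p = 0.941). In obese rats the arrays did not overlap in 6 genes that were higher on rosiglitazone (Gsta3, Gstp1, Gstt1, Gstz1, Gsr and Srxn1) and in 6 that were lower (Gstt2, Gpx1, Gpx3, Cyba, Nox4 and Ucp2). That is 13.3% each way, beside 6.02% of all genes higher and 7.3% lower. Among those not yet given, the values were 0.35 for Srxn1, 0.16 for Gstt1, 0.25 for Gsr, -0.13 for Gstt2, -0.18 for Gpx3 and -0.20 for Ucp2, with none past the test. In lean rats the only gene at an unadjusted p under 0.05 was Gstm4, a mu class transferase, with 457, 511 and 428 on control diet and 379, 420 and 268 on rosiglitazone, a change of -0.39 (SE 0.16, adjusted p = 0.981). Mgst3, Prdx3 and Prdx5 were the 3 genes whose lean arrays on rosiglitazone all lay above the lean controls, by 0.21, 0.17 and 0.16, each with an adjusted p of 0.981. That is 6.67% of the 45, beside 3.31% of all genes, and in the other direction Gstm4 alone did not overlap, 2.22% beside 5.05% of all genes.

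**Figure D4:**
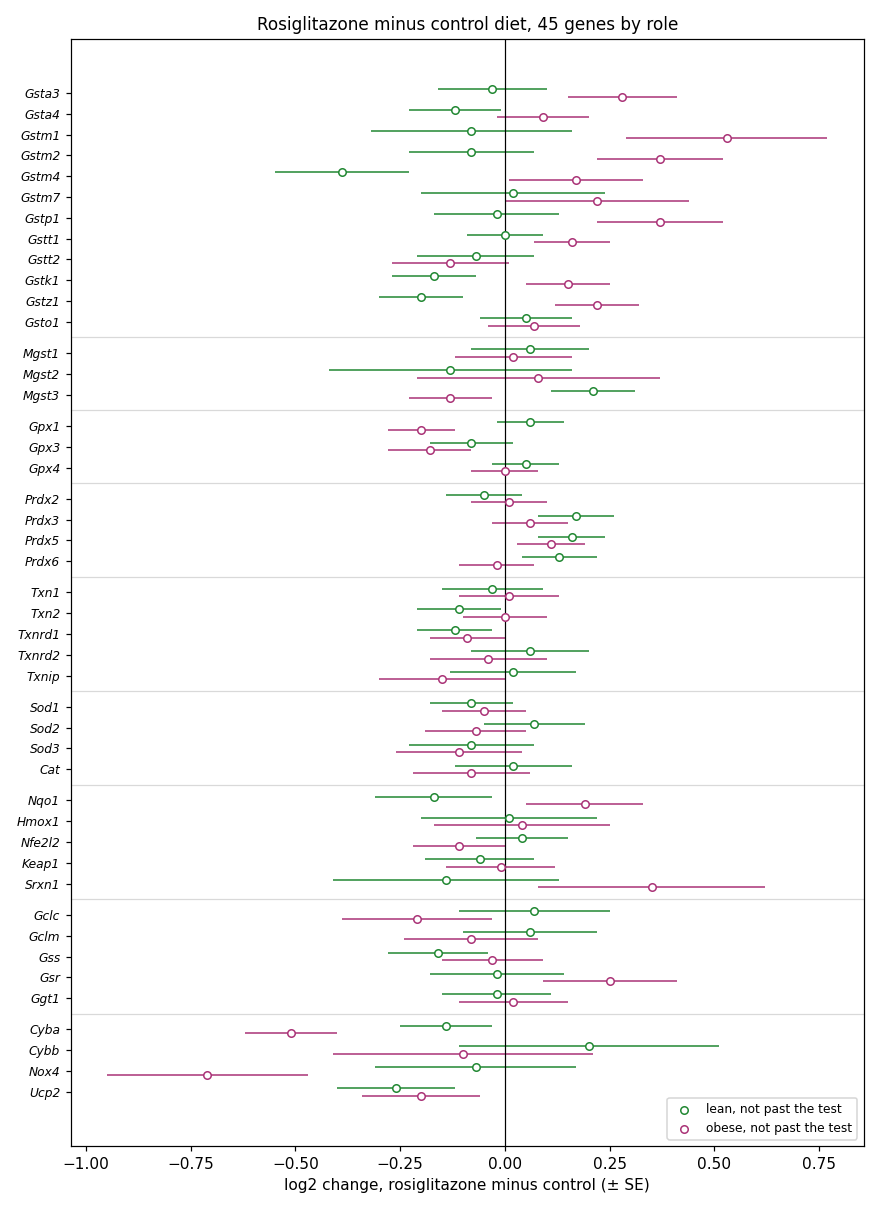
Log2 change with SE of the 45 genes between rosiglitazone and control diet, ordered by role, in lean (green) and obese (purple) rats, 3 arrays a group. All points are open because none passed the test; in obese rats Nox4 lies lowest at -0.71 and Gstm1 highest at 0.53.

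The difference of the rosiglitazone effect between body types is the same quantity as the difference of the body type effect between diets, and it was tested as an interaction. None of the 45 genes passed limma's test, beside 0% of all genes, and 7 had an unadjusted p under 0.05 (15.6%, beside 4.6% of all genes). A gene called on a single diet, such as Gpx1, Gstk1, Gstz1, Mgst3 or Srxn1, is therefore not shown to differ between diets. The interaction was 0.42 (SE 0.14, adjusted p = 0.992) for Gstz1, 0.56 for Gstm4, 0.45 for Gstm2 and 0.33 for Gstk1. It was -0.36 for Cyba, -0.34 for Mgst3 and -0.26 for Gpx1, each with an adjusted p of 0.992. Nox4 had the lowest value, -0.65 (SE 0.34, adjusted p = 0.992). The median SE of 0.18 for this contrast was larger than for the others.

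The rest of the pathway was read from a list of 96 further genes of glutathione, thioredoxin and NADPH supply, peroxide removal and the Nrf2 response, of which 73 were tested. Over both diets 22 of them (30.1%) differed between body types, 10 higher and 12 lower, beside 16.3% of all genes. On control diet 4 were higher and 8 lower (16.4%, beside 5.51% of all genes). On rosiglitazone 6 were higher and 5 lower (15.1%, beside 6.02% of all genes). The 8 with the smallest p include Nfe2l1, a transcription factor related to Nrf2 and known for control of proteasome genes. Nfe2l1 signals were 1154, 1188 and 1307 in lean controls, 1227, 1321 and 1232 in lean rats on rosiglitazone, 1869, 2246 and 2103 in obese controls and 2336, 1834 and 2119 in obese rats on rosiglitazone. It was higher in all obese arrays, by 0.74 (SE 0.08, adjusted p = 2.98e-05) over both diets. Lap3, an aminopeptidase that can split the cysteinylglycine left by Ggt1, was higher by 0.52 (SE 0.08, adjusted p = 0.00076), with 1193 to 1610 in lean and 1847 to 2369 in obese arrays.

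Most of the others named by that rule were lower in obese kidneys. Msrb1, a selenoprotein that repairs oxidized methionine, was at -0.56 (SE 0.06, adjusted p = 5.32e-05), and the NADPH-forming malic enzyme Me1 at -0.49 (SE 0.08, adjusted p = 0.00115). Ggct and Oplah, successive enzymes of the gamma-glutamyl cycle downstream of glutathione breakdown, were at -0.60 (SE 0.10, adjusted p = 0.00173) and -0.37 (SE 0.07, adjusted p = 0.00225). Osgin1, an oxidative stress response gene, was at -0.78 (SE 0.13, adjusted p = 0.00177). These 7 genes kept their calls over both diets in all 22 alternatives. Ucp1, which uncouples respiration in brown fat, had the smallest p of the list between body types. Ucp1 signals were 803, 632 and 894 in lean controls, 2357, 5435 and 1535 in lean rats on rosiglitazone, 32.8, 6.87 and 4.11 in obese controls and 79.1, 132 and 220 in obese rats on rosiglitazone. In obese controls it was near background, so no fold is given. Ucp1 was also the only gene of the list called for rosiglitazone over both body types (adjusted p = 0.0456), a call lost in 14 of 21 alternatives, and it stands on the fat cell list as well.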

How the data were processed

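Kidney RNA of 12 rats was hybridized to Affymetrix Rat Genome 230 2.0 arrays. The deposited values are linear signal intensity values that the authors made with MAS5, per the submitters' processing notes. The sources used here do not give the version, the scaling target or later steps. Array means after trimming 2% at each end were 500.12 to 500.15, so no further normalization was applied. Of 31042 probe sets besides 57 controls, 20826 carried 1 symbol of an old annotation, 436 several and 9780 none.

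After adding 16 and taking log2, the 18625 probe sets at or above the 40th percentile of the mean (7.32) entered 1 limma model (3.58.1, statmod 1.5.0, R 4.3.3) of 4 group means with 8 residual degrees of freedom. It used eBayes with trend and robust settings and Benjamini-Hochberg adjustment in each of 7 comparisons, and was tested on simulated data. Shares over all genes use the brightest probe set of each of 10524 genes.

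Named with array values were genes past a test, the 2 genes of smallest p per role on control diet and for the drug, and up to 8 of the further list. The genes and lists were chosen with earlier results of these data known. Alternatives were offsets of 1 and 64, no filter or the 60th percentile, median centring, quantile normalization, plain eBayes, the mean of a gene's probe sets, the cre class, a replicate block and leaving out each array. The labels number the 3 arrays of each group of 3 rats without tying an array to a rat, so p-values measure the spread between these arrays, and the number of arrays limits the precision.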

Additional observations from a re-analysis of the deposited data

How the results depend on the processing

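The 45 genes gave 7 calls on control diet, 9 on rosiglitazone and 18 with the diets combined, beside 5.51%, 6.02% and 16.3% of all genes. Counts and shares below keep this order. Offsets of 1 and 64 and the filter at the 60th percentile gave the same counts. With that filter 7.73%, 8.91% and 20.8% of all genes were called. The mean of a gene's probe sets gave 7, 8 and 18, beside 5.89%, 6.57% and 16.6%. Without trend and robust settings there were 1, 3 and 12, beside 3.13%, 3.54% and 13.7% of all genes. With median-centred arrays there were 1, 4 and 9, beside 2.99%, 2.94% and 11.4%. Under quantile normalization there were 8, 4 and 13, beside 5.37%, 5.8% and 15.9%. With the cre class as a covariate there were 8, 4 and 14, beside 6.12%, 4.34% and 12.2% of all genes. Without the filter there were 4, 8 and 15, beside 3.06%, 3.36% and 10.9%. Within the higher cre class 0 were called on control diet, beside 0.285% of all genes. Within the lower class 0, 3 and 8 were called, beside 0.979%, 3.06% and 6.83% of all genes. These fits hold fewer arrays, with 1 lean array a diet in the lower class and 1 obese array in the higher, and other causes were not tested. Leaving out single arrays gave 1 to 11, 3 to 9 and 13 to 21 calls. The shares of all genes called were 2% to 6.22%, 2.92% to 6.69% and 12% to 16.6%. The labels do not say whether replicate numbers pair the arrays. Deviations of same-numbered arrays correlated between -0.18 and 0.18 over 18 pairs, and 3 of 12 arrays correlated best with their own number. With 3 arrays a group, this cannot settle whether same-numbered arrays were handled together. With the replicate block there were 10, 10 and 17 calls, beside 6.02%, 6.44% and 16.5% of all genes. Called in all 22 alternatives over both diets were Gstm2, Gstt1, Prdx6, Txn1, Sod1, Cyba, Ucp2 and Srxn1. The sign turned for Gclm within the lower cre class, to 0.04 over both diets and 0.13 on control diet. It turned for Mgst3 on control diet, to 0.09 under quantile normalization, 0.06 within the higher cre class and 0.03 without obese control 3 (-0.15 to 0.03 without single arrays). It turned for Gstz1 on rosiglitazone, to -0.01 within the lower cre class, -0.02 without lean rosiglitazone 1 and -0.04 without obese rosiglitazone 2. No change that had passed its test turned sign in these alternatives. Gstm3 and 3 dim further probe sets lay below the filter and were not among the genes counted.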

Other observations

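Gstm3 and 3 further probe sets lay below the filter and were not in the main test. The second Cyba probe set read 16.8 to 84.2 in lean and 9.56 to 21.3 in obese arrays, the second Gpx4 probe set 120 to 199 and 60.8 to 159, and the third Srxn1 probe set 11.6 to 52.9 and 9.96 to 79.6.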
